A study of Mus musculus with 8 samples.

Results

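Genes that carry fatty acids into heart muscle and oxidise them in mitochondria were followed in mouse ventricles lacking Mib1 in cardiomyocytes. The set was written as a list of 37 gene names, ordered here by step: uptake, activation, the carnitine shuttle, the beta oxidation spiral with its auxiliary enzymes, electron transfer, regulators, and thioesterases with fuel switches. Values were obtained for 36 of the 37 among 13869 genes, and Ucp3 was not analysed here. All 36 passed the filter on low values (a mean log2 CPM of at least 0, where CPM is counts per 1000000 of the normalised library size).

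Polyadenylated RNA was sequenced from heart ventricles of embryos at E14.5. The mutant group (Mib1flox; TnT-Cre) carries a floxed Mib1 allele that Cre recombinase deletes under the cardiac troponin T promoter, which is active in cardiomyocytes, so the other cells of the ventricle keep Mib1, and the wild-type group (WT) came from the same experiment, with no treatment in either. For each genotype 16 hearts were combined into 4 pools, and each pool gave 1 library. No source used here says that the pools were separate litters, and the p values therefore measure the spread between these pools. Mib1, the E3 ubiquitin ligase that Notch ligands need for signalling, stood at 106, 103, 95.3 and 96.3 CPM in mutant replicates 1 to 4 and at 150, 166, 160 and 167 CPM in wild-type replicates 1 to 4, a fall of 1.6-fold (limma adjusted p = 8.62e-06), and no library went against its label. Recovered totals ran from 6307634 to 11506082 counts. Of 12 ventricular cardiomyocyte markers, none was called, 10 lay below 0 on the log2 difference scale with a median of −0.07, and the lowest mean level was 82.9 CPM. Of 8 erythroid and 9 atrial markers with values, 8 and 8 lay below 0 (medians −0.52 and −0.44). Among the erythroid markers 2 were called lower (Ank1 at −0.55 and Hba-a1 at −0.55) and 0 higher, and among the atrial markers 2 lower (Bmp10 at −2.29 and Kcnj3 at −0.67) and 1 higher (Myl7 at 0.37). Over all genes tested, 1.25% were called lower and 0.99% higher. Of 10 brown fat and liver markers the 2 with values summed to at most 7 CPM in any library.

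Long-chain fatty acids reach the heart as lipoprotein fat or bound to albumin, cross the membrane through carriers such as CD36, and are joined to coenzyme A by acyl-CoA synthetases. The carnitine shuttle moves the acyl group into mitochondria, where each turn of beta oxidation (dehydrogenation, hydration, a further dehydrogenation and thiolysis) releases acetyl-CoA and passes electrons to the respiratory chain. The fetal heart relies largely on glucose and lactate, and fatty acid oxidation becomes the main fuel pathway after birth, under the control of PPAR and estrogen-related receptors and their coactivators.

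Of the 36 genes, 4 fell and 0 rose at a limma adjusted p under 0.05: the fatty acid carrier gene Cd36, the acyl-CoA synthetase gene Acsl1, the trifunctional protein gene Hadha and the thiolase gene Acaa2, by 11.9% to 23.8%. Among all 13740 genes tested, 2.24% were called, 1.25% lower and 0.99% higher. At an unadjusted p under 0.05 there were 13 lower and 0 higher members, against 7.85% and 6.94% of all genes. The limma fit with voom weights on recovered counts, a variant of the same method, also called 4 lower and 0 higher. The median log2 difference of the 36 genes was −0.09, with 30 of them below 0, while the median of all genes tested was 0.00092 and 49.7% lay below 0. The ventricular cardiomyocyte markers, with their median of −0.07, summed to 41074 to 43383 CPM in mutant and 43010 to 46967 CPM in wild-type libraries, and their part in the result was not tested. The members are read more precisely than most genes, with a median standard error (SE) of 0.056 against 0.0919 for all genes.

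The 4 calls depended on the fit and on which libraries were used. None of them was made in limma without its trend on the mean, where 109 genes were called lower and 70 higher in all. No member was called when wild-type replicate 1 or wild-type replicate 2 was left out, 1 (Acsl1) without wild-type replicate 3, 2 without wild-type replicate 4, 3 without mutant replicate 1, 2 or 4, and 5 without mutant replicate 3. The median over the members stayed between −0.1 and −0.07 in these 8 fits.

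**Figure D1:**
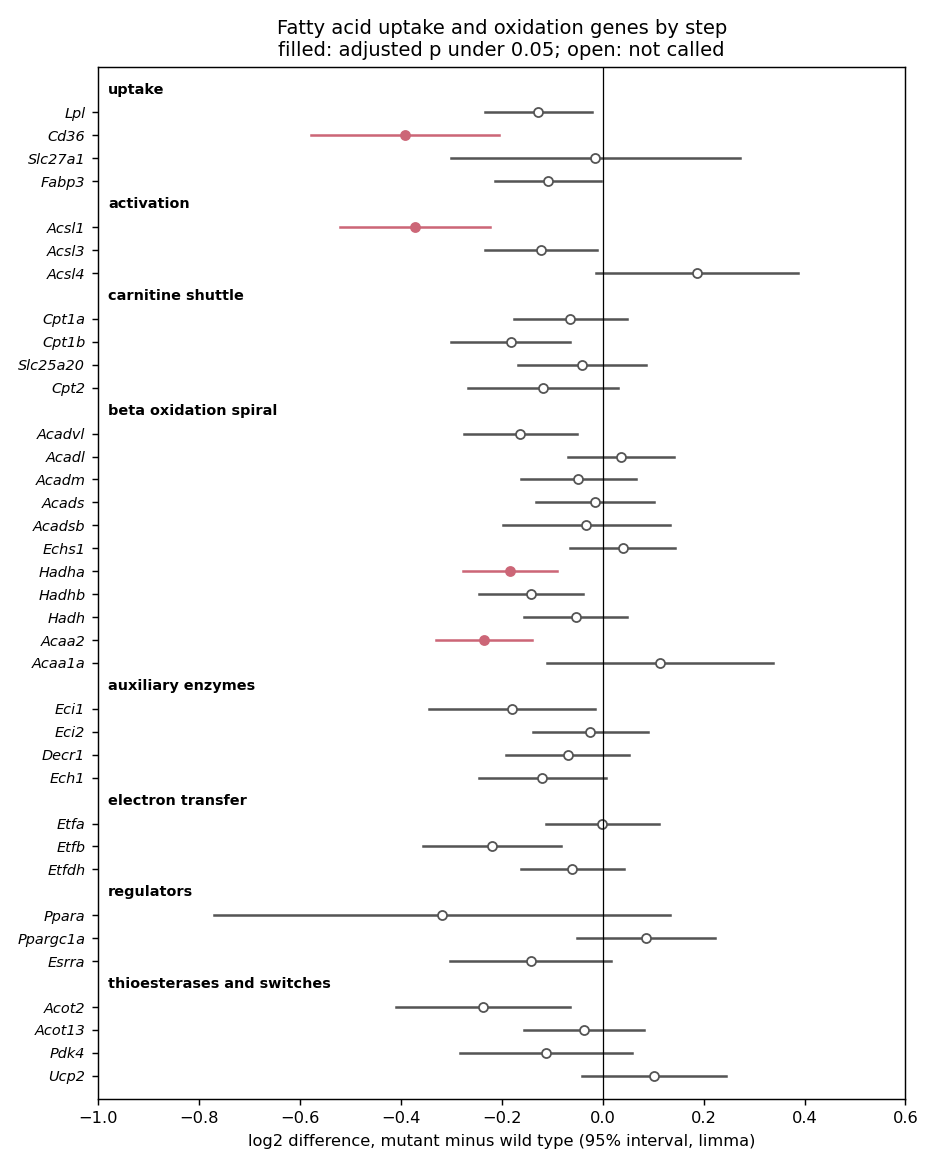
The plot of differences gives, for each of the 36 genes on the vertical axis, the log2 difference of mutant minus wild type with its 95% interval from limma, grouped by step. Filled points mark the 4 genes with an adjusted p under 0.05 (Cd36, Acsl1, Hadha and Acaa2), and 30 of the 36 points lie left of 0.

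Separation between the groups was seen in more genes than the 4 called. In 11 of the 36 every mutant library lay below every wild-type library (Lpl, Cd36, Fabp3, Acsl1, Acsl3, Cpt1b, Acadvl, Hadha, Hadhb, Acaa2 and Etfb), against 4.63% of all genes tested. The opposite separation was found in 0 members and in 4.26% of all genes. Summed over the 36 genes, the mutant libraries held 5480 to 5725 CPM and the wild-type libraries 5916 to 6208 CPM, with no overlap.

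CD36 binds and transports long-chain fatty acids and is made by capillary endothelium as well as by heart muscle. Cd36 (ENSMUSG00000002944) stood at 256, 238, 220 and 237 CPM in wild-type replicates 1 to 4 and at 209, 194, 149 and 178 CPM in mutant replicates 1 to 4. The highest mutant library was below the lowest wild-type library, and mutant replicate 3 was the lowest of all. The mean fell from 238 ± 14.6 to 182 ± 25.8 CPM (SD, n = 4), a log2 difference of −0.39 ± 0.09 (SE; limma adjusted p = 0.0294), and 5 of the 8 leave-one-out fits did not call it. Endothelial markers without Cd36 were lower in the same libraries. Of these, 12 of 12 lay below 0 with a median of −0.21, and 3 were called lower (Egfl7, Ramp2 and Tek), against 1.25% of all genes tested. Their summed level was 1313 to 1384 CPM in mutants and 1516 to 1571 CPM in wild type, with no defining marker at 0. Their part in the Cd36 result was not tested, and in tissue RNA fewer cells of a type and less RNA per cell cannot be told apart.

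The other uptake genes had smaller differences, and none was called. Lpl, the gene of lipoprotein lipase, which frees fatty acids from lipoproteins, stood at 365, 364, 349 and 340 CPM in wild type and at 331, 333, 301 and 334 CPM in mutants, in replicate order. Fabp3, which encodes the heart fatty acid binding protein of the cytosol, stood at 371, 363, 350 and 348 CPM in wild type and at 309, 336, 341 and 344 CPM in mutants. Neither gene overlapped between the groups, yet the log2 differences were only −0.13 (adjusted p = 0.243) and −0.11 (adjusted p = 0.324). Slc27a1, a fatty acid transport protein gene, was low and overlapped fully, at 16.1 ± 1.63 CPM in wild type and 16.1 ± 3.04 CPM in mutants (SD, n = 4), and its difference of −0.01 turned to 0.0035 under quantile normalisation.

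**Figure D2:**
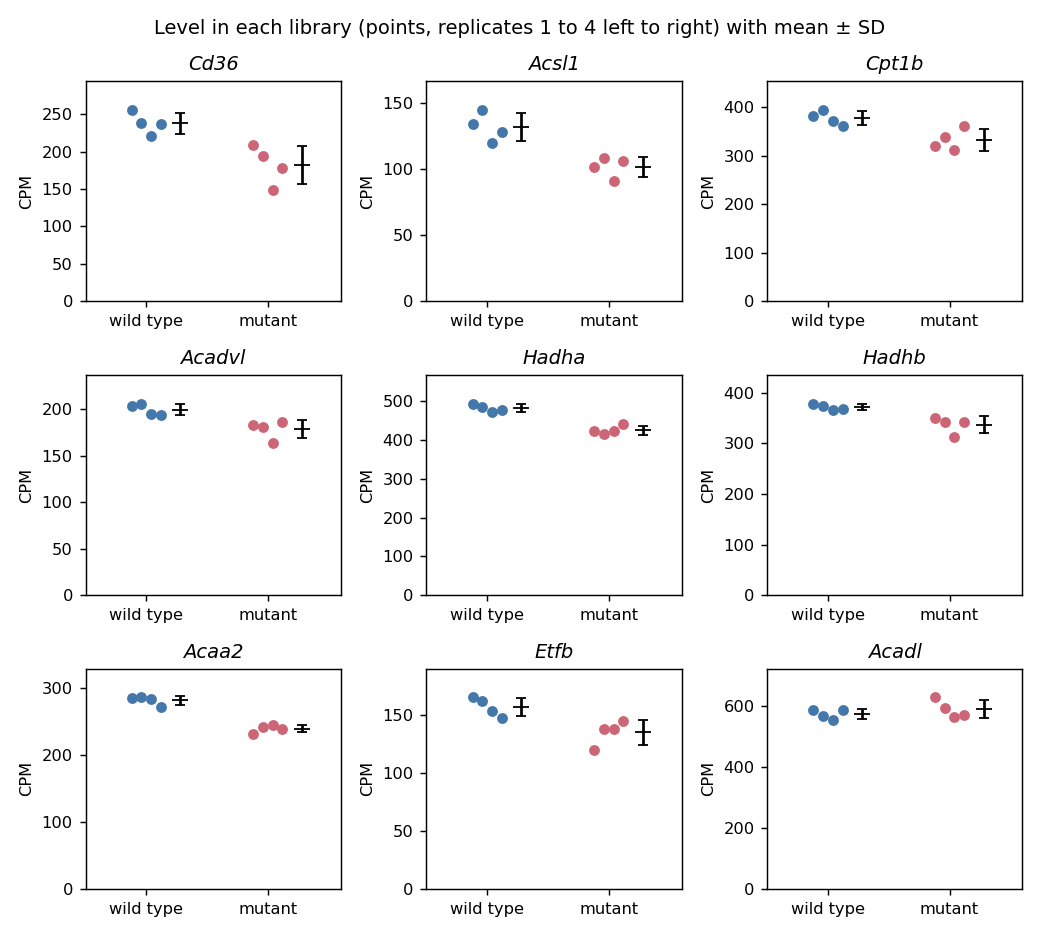
The plot of levels shows CPM (vertical axes, from 0) in the 4 wild-type (blue) and 4 mutant (red) libraries for 9 genes, with the mean and SD beside the points. In all panels but that of Acadl every mutant library lies below every wild-type library, by the widest margin relative to level in Acsl1 and Acaa2 and by the narrowest in Cpt1b.

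Acyl-CoA synthetases differ in tissue and substrate: ACSL1 is the main form of the adult heart and supplies oxidation, ACSL3 is tied to lipid droplets and ACSL4 prefers arachidonic acid. Acsl1 (ENSMUSG00000018796) stood at 134, 145, 120 and 128 CPM in wild-type replicates 1 to 4 and at 102, 109, 91.4 and 106 CPM in mutant replicates 1 to 4. The groups did not overlap, and the mean fell from 132 ± 10.5 to 102 ± 7.6 CPM (SD, n = 4), by 22.7%. The log2 difference was −0.37 ± 0.07 (SE; adjusted p = 0.011), and 2 of the 8 leave-one-out fits did not call it.

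Its relatives were not called. Acsl3 stood at 128, 122, 121 and 125 CPM in wild type and at 118, 120, 110 and 109 CPM in mutants, a log2 difference of −0.12 (adjusted p = 0.288). Acsl4 stood at 55.3, 58.2, 58.3 and 61 CPM in wild type and at 80.1, 70.4, 56.1 and 60.8 CPM in mutants. Mutant replicates 1 and 2 were above all wild-type libraries while mutant replicates 3 and 4 were within their range, so that the difference of 0.19 had a 95% interval from −0.01 to 0.39.

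Ratios of Acsl1 to the other synthetases, taken within libraries, were lower in the mutants. The ratio of Acsl1 to Acsl4 was 2.27 ± 0.221 in wild type and 1.55 ± 0.202 in mutants (SD, n = 4), a log2 difference of −0.56, and the ratio of Acsl1 to Acsl3 was 1.06 ± 0.0869 against 0.894 ± 0.0595, a log2 difference of −0.25. For both, every mutant library was below every wild-type library. The exact two-sided permutation p was 0.0286 for each, the smallest that 4 against 4 libraries can give. After Benjamini-Hochberg adjustment over the 5 ratios computed it was 0.0477. This adjustment leaves out the planned ratio of Ucp3 to Ucp2, which was not run, and the adjusted p depends on how many ratios are counted. The ratios were also chosen with earlier results of these data known, which the p values do not allow for. The fall of Acsl1 itself is contained in both ratios, which are therefore not independent of it or of each other.

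CPT1 forms acylcarnitine at the outer mitochondrial membrane and is the step that malonyl-CoA inhibits, SLC25A20 carries acylcarnitine across the inner membrane, and CPT2 reforms acyl-CoA inside. None of the 4 genes was called, and all 4 lay below 0. Cpt1b, the muscle form (ENSMUSG00000078937), stood at 381, 394, 370 and 362 CPM in wild type and at 319, 338, 311 and 361 CPM in mutants. The groups did not overlap, although mutant replicate 4 came within 1 CPM of wild-type replicate 4, and the log2 difference was −0.18 ± 0.05 (SE; adjusted p = 0.112).

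Cpt1a, the liver form, stood at 116, 113, 115 and 106 CPM in wild type and at 111, 103, 111 and 106 CPM in mutants, with overlap and a difference of −0.06. Per kilobase of transcript, the muscle form was the more abundant in wild type, at 130 CPM per kb against 26.1 for the liver form. The ratio of Cpt1b to Cpt1a was 3.34 ± 0.123 in wild type and 3.09 ± 0.296 in mutants (SD, n = 4), with overlap (exact permutation p = 0.229, adjusted over the 5 ratios 0.286). Cpt2 stood at −0.12 (95% interval −0.27 to 0.03) and Slc25a20 at −0.04 (−0.17 to 0.09).

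Acyl-CoA dehydrogenases are matched to chain length, ACADVL at the inner membrane for the longest chains and ACADL, ACADM and ACADS in the matrix for long, medium and short ones. None was called. Acadvl (ENSMUSG00000018574) stood at 203, 206, 195 and 194 CPM in wild type and at 183, 180, 164 and 186 CPM in mutants. The groups did not overlap, and the log2 difference was −0.16 ± 0.05 (SE; adjusted p = 0.142).

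Acadl, the most abundant of the dehydrogenases per length at 300 CPM per kb in wild type (299.6 before rounding), stood at 586, 569, 553 and 588 CPM in wild type and at 629, 595, 564 and 570 CPM in mutants. Its groups overlapped and its difference was 0.04 (95% interval −0.07 to 0.14). The ratio of Acadl to Acadvl was 2.88 ± 0.116 in wild type and 3.31 ± 0.177 in mutants (SD, n = 4). It was higher in every mutant library than in every wild-type library (log2 difference 0.2). The exact permutation p was 0.0286, the smallest possible, and 0.0477 adjusted over the 5 ratios computed, which leave out the planned ratio of Ucp3 to Ucp2. The lower level of Acadvl is contained in this ratio, which is therefore not independent of it. Acadm stood at −0.05 (−0.16 to 0.07), Acads at −0.02 (−0.13 to 0.1) and Acadsb, the dehydrogenase of short branched acyl groups, at −0.03 (−0.2 to 0.13), all with overlap.

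The mitochondrial trifunctional protein, bound to the inner membrane, takes long chains through hydration, the further dehydrogenation and thiolysis; Hadha encodes its alpha and Hadhb its beta subunit. Hadha (ENSMUSG00000025745) stood at 494, 486, 473 and 477 CPM in wild type and at 422, 415, 423 and 441 CPM in mutants, without overlap. The mean fell from 483 ± 9.15 to 425 ± 11 CPM (SD, n = 4), a log2 difference of −0.18 ± 0.04 (SE; adjusted p = 0.042), and 6 of the 8 leave-one-out fits did not call it. Hadhb (ENSMUSG00000059447) stood at 379, 374, 365 and 367 CPM in wild type and at 351, 342, 312 and 342 CPM in mutants, also without overlap, at −0.14 ± 0.05 (SE; adjusted p = 0.17). The subunit genes kept a near-constant ratio in wild type, 1.3 ± 0.00369, against 1.26 ± 0.0699 in mutants (SD, n = 4), with overlap (exact permutation p = 0.314, the same after adjustment).

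Hadha and Hadhb lie head to head, with 272 bases between their RefSeq starts. The stretch of that interval outside every annotated exon is shown because it lies between these starts. It begins 90 bases before the Hadhb start and runs over chr5:30155163-30155247 (GRCm38.p6, plus strand, read toward Hadhb). Any part of this stretch in the lower levels of both genes was not tested. Capitals mark its 2 matches to the GC box GGGCGG.
Hadha-Hadhb interval: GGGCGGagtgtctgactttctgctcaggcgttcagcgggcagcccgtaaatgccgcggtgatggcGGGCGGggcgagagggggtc
The GC box, on either strand, was found within 250 bases before the start in 22 of the 31 members with a promoter entry (71%), in 57.2% of promoters of the genes tested and in 32.7% of all 32851 promoter entries. The share of members counts genes, with 34 windows among the 31, while the other shares count promoters.

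In the matrix, ACAA2 is the thiolase that ends each turn for medium and long chains. Acaa2 (ENSMUSG00000036880) stood at 285, 286, 283 and 272 CPM in wild-type replicates 1 to 4 and at 232, 241, 245 and 240 CPM in mutant replicates 1 to 4. The groups were well apart, and the mean fell from 282 ± 6.65 to 239 ± 5.64 CPM (SD, n = 4), by 15%. The log2 difference was −0.24 ± 0.04 (SE; adjusted p = 0.0117), and 3 of the 8 leave-one-out fits did not call it.

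The remaining enzymes of the spiral were close to equal. Echs1, the short-chain hydratase gene, stood at 139 ± 4.15 CPM in wild type and 143 ± 4.94 CPM in mutants, and Hadh, the short-chain hydroxyacyl-CoA dehydrogenase gene, at 175 ± 5.07 and 169 ± 5.79 CPM (SD, n = 4). Their 95% intervals, −0.07 to 0.14 and −0.16 to 0.05, both include 0. Acaa1a, a peroxisomal thiolase gene with the close paralog Acaa1b, was low and had a difference of 0.11 (−0.11 to 0.34). In all, 2 of the 11 genes of the spiral were called lower and 0 higher, against 1.25% and 0.99% of all genes tested. Of the 11, 8 lay below 0, with a median of −0.05. Every mutant library was below every wild-type library in 4 of the 11, against 4.63% of all genes tested.

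**Figure D3:**
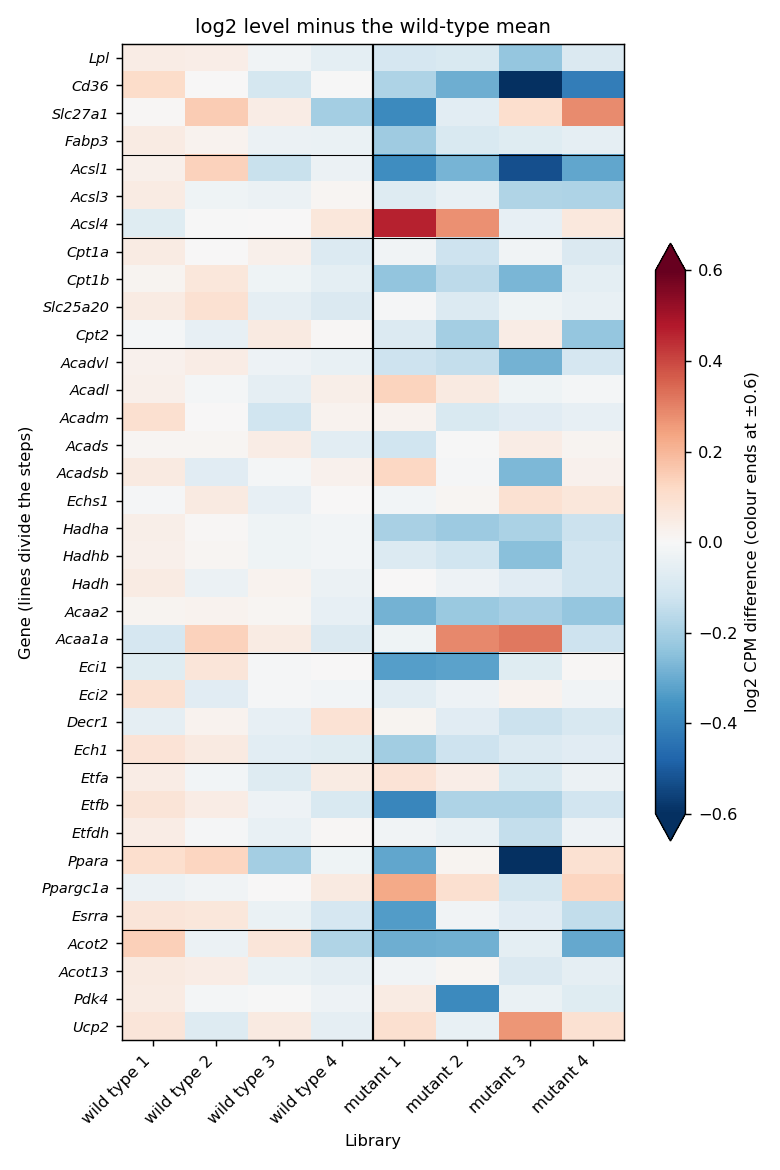
The heat map gives each gene (rows, in order of step) in each library (columns) as log2 CPM minus the wild-type mean, red above and blue below. Cd36, Acsl1, Hadha, Hadhb and Acaa2 are blue in all 4 mutant columns, whereas Acsl4, Acaa1a and Slc27a1 differ in sign between mutant libraries.

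Double bonds of unsaturated fatty acids are handled by the isomerases ECI1 and ECI2, the reductase DECR1 and the dienoyl isomerase ECH1. None of these 4 genes was called, and their groups overlapped. Eci1 stood at 83.4, 92.4, 87.2 and 87.9 CPM in wild type and at 69.7, 70.2, 83.3 and 88.1 CPM in mutants, so mutant replicates 1 and 2 were low and replicate 4 was within the wild-type range (−0.18, adjusted p = 0.292). Ech1 stood at −0.12, Decr1 at −0.07 and Eci2 at −0.02.

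The electron transfer flavoprotein accepts electrons from the acyl-CoA dehydrogenases, and ETFDH passes them to ubiquinone. Etfb, the beta subunit gene (ENSMUSG00000004610), stood at 165, 162, 154 and 148 CPM in wild type and at 120, 138, 138 and 145 CPM in mutants, without overlap, at −0.22 ± 0.06 (SE; adjusted p = 0.101). Etfa, the alpha subunit gene, stood at 224 ± 9.17 CPM in wild type and 224 ± 12 CPM in mutants (SD, n = 4), with a 95% interval from −0.11 to 0.11. Etfdh stood at −0.06 (−0.16 to 0.04). The difference between Etfb and Etfa was not tested.

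PPARA is the fatty acid-activated receptor that drives these genes, ESRRA an orphan receptor of mitochondrial genes, and PPARGC1A their coactivator. None was called. Ppargc1a stood at 178, 180, 183 and 189 CPM in wild type and at 213, 195, 170 and 199 CPM in mutants, 3 mutant libraries above and 1 below the wild-type range, a difference of 0.09 (95% interval −0.05 to 0.22). Esrra stood at 67.7, 67.5, 62.7 and 60 CPM in wild type and at 51.1, 63.5, 61.5 and 58.2 CPM in mutants, a difference of −0.14 (−0.3 to 0.02). Ppara was the least abundant member, at 10.5, 10.8, 8.5 and 9.66 CPM in wild type and 7.94, 9.92, 4.64 and 10.5 CPM in mutants, with a wide interval of −0.77 to 0.13.

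Both receptors recognise DNA elements built on the hexamer AGGTCA. Within 250 bases before the start this hexamer, on either strand, was present in 5 of the 31 members with a promoter entry (16.1%), and in 10.4% of the promoters of tested genes and 14% of all entries. As for the GC box, the share of members counts genes, with 34 windows among the 31, and the other shares count promoters. The 5 matches are shown to place the hexamer relative to the start, in the direction of transcription, with the hexamer or its reverse complement TGACCT in capitals (RefSeq, GRCm38.p6).
Cd36: ctctgcactttaTGACCTgagattttcagg
Cpt1a: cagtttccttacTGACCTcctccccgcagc
Acadvl: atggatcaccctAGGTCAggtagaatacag
Echs1: accagcccgctcAGGTCAcgggtccacccc
Acadm: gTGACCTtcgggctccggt
The windows are chr5:17836107-17836136 (minus strand) for Cd36, chr19:3323195-3323224 (plus) for Cpt1a, chr11:70015498-70015527 (minus) for Acadvl, chr7:140116487-140116516 (minus) for Echs1 and chr3:153944875-153944893 (minus) for Acadm. The matches began 228, 94, 87, 83 and 249 bases before the start, in that order. These 5 genes had log2 differences of −0.39, −0.06, −0.16, 0.04 and −0.05, and a relation to the hexamer was not tested. The longer elements TCAAGGTCA and AGGTCANAGGTCA, searched on both strands, and each containing the hexamer, had 0 matches among the members' windows and occurred in 0.258% and 0.038% of the promoters of tested genes, which says only that these letters are not in these windows.

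ACOT2 in mitochondria and ACOT13 release free fatty acid from acyl-CoA, PDK4 holds back pyruvate dehydrogenase, and UCP2 is an inner membrane carrier. None of these 4 genes was called. Acot2 stood at 68.2, 60.3, 64.9 and 54.5 CPM in wild type and at 50.3, 50.5, 59.3 and 50 CPM in mutants (−0.24, adjusted p = 0.166), and reads could be shared with its close paralog Acot1. Among the 8 leave-one-out fits it was called in 1, without mutant replicate 3, the highest mutant library (adjusted p = 0.04997, against 0.0869 to 0.405 in the other 7). Pdk4 was even except in mutant replicate 2, at 57 CPM against 70.5 to 76.8 CPM in the other 7 libraries. Acot13 stood at −0.04 and Ucp2 at 0.1 (95% interval −0.04 to 0.24). Ucp2 is also made by macrophages, whose 12 markers were all below 0 (median −0.41, summed level 81.8 to 104 CPM in mutants against 119 to 144 CPM in wild type). Of these, 3 were called lower (C1qc, Lyz2 and Tyrobp, at −0.86, −0.88 and −1.15), against 1.25% of all genes tested. The part of the macrophage markers was not tested.

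**Figure D4:**
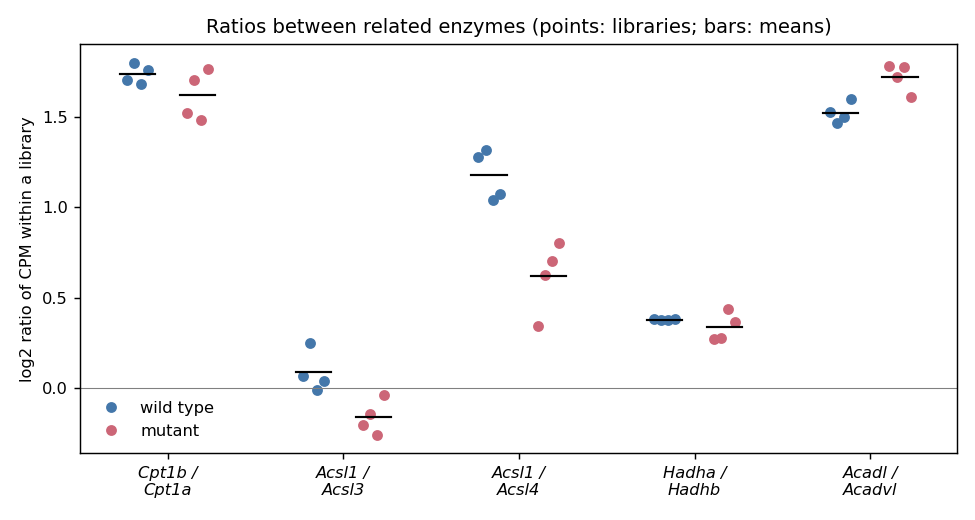
The plot of ratios gives the log2 ratio of CPM of related genes within each library (points) with the group mean (bars), wild type in blue and mutant in red. Acsl1 over Acsl3 and Acsl1 over Acsl4 are lower, and Acadl over Acadvl higher, in every mutant library, while Cpt1b over Cpt1a and Hadha over Hadhb overlap.

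Levels per length spanned a wide range in the wild-type ventricle. Fabp3 led with 435 CPM per kb, followed by Acadl, and Acaa2 (186), Hadhb (181), Etfb (176), Etfa (161), Cpt1b (130), Hadha (120.2) and Acadm (119.9). At the other end stood Ppara (2.89), Slc27a1 (5.77), Acsl4 (11), Acadsb (11.1) and Acaa1a (16.5). Among the synthetases Acsl1 stood at 33.9 and Acsl3 at 31.4 CPM per kb.

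**Figure D5:**
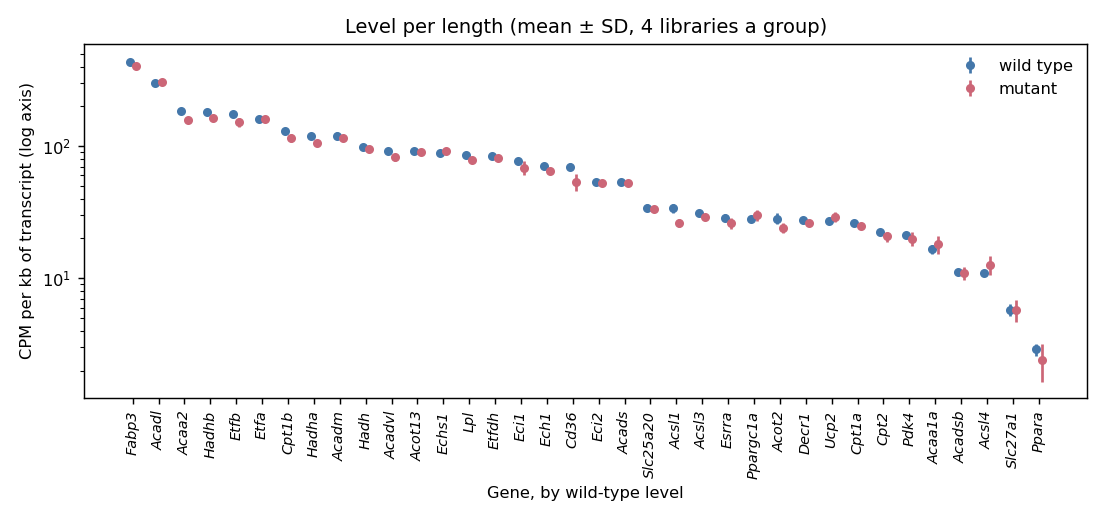
The plot of level per length shows the mean CPM per kb of the longest annotated coding transcript (log axis, with SD over 4 libraries) for each gene, ordered by wild-type level, wild type in blue and mutant in red. Fabp3 at 435 and Ppara at 2.89 CPM per kb are the ends of the wild-type range.

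Mutant libraries were alike in how the set behaved. The median deviation of the 36 genes from their wild-type means was −0.08, −0.08, −0.08 and −0.06 in mutant replicates 1 to 4, with 26, 28, 29 and 27 genes below 0. In wild type the medians were 0.04, 0.01, −0.03 and −0.03, with 7, 13, 25 and 24 genes below 0. Wild-type replicates 3 and 4 thus came close to the mutant counts below 0. Wild-type replicate 1 was the highest library, and it held the highest value of the 8 libraries for 17 genes. Mutant replicate 3 held the lowest value for 13 genes. The median over all tested genes deviated by 0.0013 to 0.0041 in the 8 libraries.

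Other genes of fatty acid handling were compared from 6 lists that hold 70 genes with values. None was called by limma; 10 were lower and 4 higher at an unadjusted p under 0.05, voom called 0 lower and 0 higher, and 38 of 70 lay below 0 with a median of −0.01. The gene of smallest p in each list was Fabp4 among uptake and lipolysis genes (−0.23, adjusted p = 0.0923), Crat among activation and carnitine genes (−0.17), Hsd17b4 among other acyl-CoA oxidation genes (−0.13), Acot8 among thioesterases (−0.45, at 5.59 CPM in wild type), Prkaa1, a catalytic subunit gene of AMP-activated kinase, among regulators (0.2), and Dgat2, which completes triglyceride synthesis, among lipid droplet genes (−0.46, from 15.6 to 11.2 CPM). Separation with every mutant library lower was seen in 2 of the 70 and the opposite separation in 3, against 11 and 0 of the 36 above. The shares over all genes tested were 4.63% and 4.26%. Whether these shares differ was not tested.

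The tricarboxylic acid cycle, which burns the acetyl-CoA of beta oxidation, served as a neighbouring mitochondrial pathway. Of its 18 genes 0 were called by limma (3 lower and 0 higher at an unadjusted p under 0.05; voom called 1 lower, Idh2, and 0 higher), 14 lay below 0 and the median was −0.05. Idh2, the mitochondrial NADP-dependent isocitrate dehydrogenase gene, had the smallest p, at −0.17 (adjusted p = 0.0835). It was also called with robust eBayes (adjusted p = 0.0493) and with array weights (adjusted p = 0.0472). Every mutant library was below every wild-type library in 3 of the 18 and above in 0, against 4.63% and 4.26% of all genes tested.

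Some counts carry an annotation limit. Exons of other genes overlap those of 13 members: Fabp3 (Gm10570 and Zcchc17), Acsl1 (Gm45244), Acsl3 (Utp14b), Cpt1b (Gm44502), Acadvl (Dvl2), Hadha (Garem2), Echs1 (Paox), Acaa1a (Myd88), Eci2 (Gm16984), Etfb (Gm45233 and Mir7051), Etfdh (4930579G24Rik), Esrra (Trmt112 and Mir6990) and Ucp2 (Dnajb13). The overlapping genes of Acsl3, Cpt1b and Etfb, and Mir6990 in Esrra, lie on the same strand, the others on the opposite one, and the sources used here do not say whether the counting used strand.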

How the data were processed

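Per the submitters' processing notes, cutadapt 1.2.1 served for trimming of the single-end reads, RSEM 1.16 and Bowtie2 (given there as 0.12.7) for quantification, limma and edgeR for later steps, and the build was mm9. The deposited values are a score: log2 CPM with a prior of 0.5 counts, times a constant per library that makes each column sum to 1000000. Dividing by that constant (the gap between the lowest and second lowest distinct value over log2 of 3) gave log2 CPM, from which 100% of values returned whole counts (tolerance 0.001). Printed CPM are those counts over the normalised library size.

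Symbols matched 13428 of 13869 genes (GENCODE M21). The 4 mutant and 4 wild-type libraries were contrasted in limma 3.58.1 (R 4.3.3; trend on the mean) over genes of mean log2 CPM of at least 0, Benjamini-Hochberg over 13740 genes, two-sided. Called means an adjusted p under 0.05. A difference is mutant minus wild type in log2 units, with its 95% interval from the moderated fit. Ratios were tested by exact permutation. A count of 3 equals 0.265 to 0.472 CPM, counting error only. Length is the longest GENCODE coding transcript. Promoters are RefSeq windows of GRCm38.p6, not the named build; 31 of 36 members matched. The text names all members, Mib1 and, from each other pathway list, the gene of smallest p. Marker genes (those called), Plin4 and genes called only under an alternative were named after their values were seen. Members, lists and ratios were chosen with earlier results of these data known. The fit was tested on simulated data. 22 alternatives were run: pseudocount, filter, scaling, variance model, voom on recovered counts, array weights, replicate block, threshold and each library left out. Replicate numbers were not used as pairs.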

Additional observations from a re-analysis of the deposited data

Results flagged for a closer look

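In 72 groups of 4 libraries (36 genes in each genotype), 3 held a library apart from the other 3 by Dixon's ratio at its 95% critical value, where chance gives about 1 in 20. All 3 concern mutant replicate 3. Lpl stood at 301 CPM there against 331 to 334 CPM in the other mutant libraries, Etfdh at 181 CPM against 194 to 197 CPM, and Acot2 at 59.3 CPM against 50 to 50.5 CPM. The first 2 are low and the third is high.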

How the results depend on the processing

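Of the 4 member calls, 4 were kept under both pseudocounts, both filters, the 3 other scalings, robust eBayes, voom, array weights and a threshold of 0.1. With no trend in eBayes 0 members were called (109 genes lower and 70 higher in all), and at a threshold of 0.01 also 0 (65 and 54). Array weights gave 264 lower and 226 higher genes and a threshold of 0.1 gave 299 and 252, against 172 and 136. With a library left out, 0 to 5 members, 81 to 269 lower genes and 64 to 208 higher genes were called. No member was called higher in any of the 22 alternatives. With the replicate number as a block 3 members were called (Hadha lost its call) and no count moved by over 1.5 times; same-numbered libraries correlated at −0.038 to 0.1 and the closest library of the other genotype had the same number for 0 of 4 mutant and 1 of 4 wild-type libraries. Replicate numbers were therefore not treated as pairing the pools. Among the 70 other fatty acid genes, Fabp5 was called lower under the block and without wild-type replicate 4, Fabp4 lower without mutant replicate 4 and at a threshold of 0.1, and Angptl4 lower and Prkaa2 higher without mutant replicate 3.

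For the ratios, the exact permutation test of 3 against 4 libraries cannot go below p = 0.0571, so leaving 1 out tests nothing: the log2 differences ranged from −0.29 to −0.19 for Acsl1 over Acsl3, −0.62 to −0.47 for Acsl1 over Acsl4 and 0.18 to 0.24 for Acadl over Acadvl. The planned ratio of Ucp3 to Ucp2 was not run.

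Sign changed for 5 uncalled members with differences near 0. Etfa turned to 0.0047 under total-count scaling, 4.006e-05 under median-ratio scaling, 0.0014 with voom and 0.0067 with array weights, and to between −0.028 and 0.02974 with a library left out (0.02974, 0.011, 0.014 and 0.016 where positive). Slc27a1 turned to 0.0035 under quantile normalisation and to 0.11, 0.00091 and 0.036 without mutant replicate 1, mutant replicate 2 and wild-type replicate 2 (−0.11 at the lowest). Acads turned to 0.01952 without mutant replicate 1, Acadsb to 0.048 without mutant replicate 3 and Eci2 to 0.0063 without wild-type replicate 1, their lowest values with a library left out being −0.037, −0.084 and −0.047. The cause was not tested.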

Other observations

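Sorting the spiral by where its enzymes sit, a grouping chosen after the values were seen, puts the membrane-bound enzymes of long chains together. Acadvl, Hadha and Hadhb stood at −0.16, −0.18 and −0.14, and their summed level was 899 to 969 CPM in mutant and 1034 to 1076 CPM in wild-type libraries. The matrix enzymes Acadl, Acadm, Acads, Acadsb, Echs1 and Hadh stood at 0.04, −0.05, −0.02, −0.03, 0.04 and −0.05, all with overlap between the groups. The matrix thiolase gene Acaa2, by contrast, fell by 0.24. No test was made of this grouping.

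Lipid droplet genes went both ways. Dgat2 stood at −0.46, and Plin4, a perilipin gene at low level that was picked after its value was seen, at 0.74 (adjusted p = 0.296), neither called.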
